A study of Mus musculus with 7 samples.

Results

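The 7 genes described here encode G protein-coupled receptors for lipids, metabolites and protons: Gpr84, Gpr183, Gpr65, Gpr132, Hcar2, Ptafr and Ltb4r1. They were taken by symbol from a table of 25571 gene rows, and all 7 were among the 15822 genes that passed the filter on low counts. Gpr84 heads the list because an earlier analysis of these libraries had placed it among the genes with the smallest p, so every value that compares the treatment groups for these receptors is a description and carries no test. The cells were sorted on CD11b from orthotopic T387 glioblastoma xenografts in the brains of NSG mice, which lack T, B and NK cells. One group of mice was gavaged with Pracinostat, a hydroxamate inhibitor of histone deacetylases, for 3 weeks from day 7 after implantation, with 4 doses of 30 mg/kg in each week (4 libraries). The other group received the same solvent of DMSO, PEG300, Tween-80 and PBS without the drug (3 libraries). The labels also give 3 mg/kg for the prepared drug, and they call the libraries biological replicates without saying how many animals each came from. The p-values below measure the spread between these libraries.

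Receptors of this superfamily sit in the cell membrane and pass the binding of a ligand to heterotrimeric G proteins, which change cyclic AMP, calcium and the cytoskeleton. GPR84 responds to medium-chain fatty acids through Gi proteins, is induced in macrophages and microglia by inflammatory stimuli, and is known to favour cytokine release and phagocytosis. GPR183 (EBI2) reads oxysterol gradients, GPR65 (TDAG8) and GPR132 respond to acid or to oxidised and lysolipids, HCAR2 (GPR109A) binds niacin and the ketone body beta-hydroxybutyrate, PTAFR binds platelet-activating factor, and LTB4R1 (BLT1) binds the chemoattractant leukotriene B4. Glioblastoma macrophages are a mixture of resident microglia and cells that entered from the blood.

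Promoter letters were available in the RefSeq table (GRCm38.p6) for 6 of the 7 receptors, all but Hcar2. Those below belong to Gpr84, which differed most between the groups, and to Gpr132, Gpr65 and Ptafr, which were all lowest in the same library. Only stretches outside the gene's own GENCODE M21 exons are printed, apart from a site of 30 bases for Gpr84, whose annotated start sites differ. Capitals mark matches, on either strand, to the PU.1, NF-kappaB, GC box and TATA motifs, whose letters follow after the sequences (NF-kappaB by name).
Gpr84, chr15:103310483-103310512, minus strand: ggaggtggggaAGGAAGTggctaaggttgg
Gpr132, chr12:112860953-112861166, minus strand: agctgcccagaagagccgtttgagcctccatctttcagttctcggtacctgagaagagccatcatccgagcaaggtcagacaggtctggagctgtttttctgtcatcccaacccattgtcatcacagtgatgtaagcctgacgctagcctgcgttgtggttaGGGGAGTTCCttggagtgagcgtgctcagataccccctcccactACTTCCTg
Gpr65, chr12:98268385-98268634, plus strand: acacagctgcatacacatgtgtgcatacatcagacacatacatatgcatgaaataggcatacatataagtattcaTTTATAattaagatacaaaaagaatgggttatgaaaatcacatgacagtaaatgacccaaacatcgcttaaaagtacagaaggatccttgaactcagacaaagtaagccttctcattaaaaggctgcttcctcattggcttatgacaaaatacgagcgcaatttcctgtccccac
Ptafr, chr4:132563817-132564066, plus strand: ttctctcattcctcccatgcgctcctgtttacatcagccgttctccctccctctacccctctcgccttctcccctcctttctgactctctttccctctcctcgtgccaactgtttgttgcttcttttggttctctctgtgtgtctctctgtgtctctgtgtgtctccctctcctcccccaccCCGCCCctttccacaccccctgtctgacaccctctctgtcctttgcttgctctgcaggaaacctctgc

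PU.1 is a factor that specifies the myeloid lineage. Its letters (AGGAAGT) began 63 bases before the listed start of Gpr84 and, on the opposite strand, 44 bases before that of Gpr132. For Gpr84, 174 of the 250 bases before that start are its own exon bases in GENCODE M21, and the match lies among them. In the whole window of 300 bases they were found in 3 of the 6 receptor promoters (Gpr84, Gpr132 and Ltb4r1), and in 9.35% of 32851 promoters of the same length. The NF-kappaB motif occurred in Gpr132 alone, 88 bases before the start, and in 8.46% of all promoters. A GC box (GGGCGG) was found in Ptafr and Ltb4r1 (35.7% of all promoters), the letters TATAAA in Gpr65, 175 bases before its start (13.6%), and a C/EBP motif (TTGCNNAA) in Gpr183 (10.8%). The AP-1 (TGANTCA), CRE (TGACGTCA) and E-box (CACGTG) letters were in none of the 6, against 7.81%, 1.79% and 7.15% of all promoters. These are matches of letters and not measurements of binding.

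Library depth ran from 10142753 to 16950597 counts, with 16319 to 19244 genes detected per library. Itgam, which encodes CD11b, stood at 1448 to 2580 CPM with Pracinostat and 1318 to 1688 CPM with DMSO, where CPM is counts per 1000000 of a library size scaled by TMM. The microglial genes Tmem119 (197 to 380 CPM with Pracinostat, 141 to 256 CPM with DMSO) and P2ry12 (181 to 303 CPM with Pracinostat, 183 to 305 CPM with DMSO) and the macrophage receptor gene Csf1r (1741 to 3004 CPM with Pracinostat, 1940 to 2287 CPM with DMSO) were high in all 7 libraries. The 11 neutrophil markers together held 0.037% to 0.0573% of counts with Pracinostat and 0.0271% to 0.0542% with DMSO. Most of these counts in every library were those of Csf3r, the receptor gene for the granulocyte growth factor. It stood at 319.7 to 411.2 CPM with Pracinostat and 271.2 to 358.6 CPM with DMSO. Ngp ran from 0 to 100.03 CPM with Pracinostat and from 0 to 59.7 CPM with DMSO, and S100a9 from 0 to 49.4 CPM with Pracinostat and from 0.515 to 45.8 CPM with DMSO. Over the 10 marker lists, the two-sided exact permutation test on 35 splits cannot give a p under 0.0286, or under 0.286 for a single list after adjustment, so it could not settle whether the cell mixture differed. The 10 T, B and NK cell markers, mostly Cd4 counts, reached that limit, with 0.000142% to 0.00114% of counts with Pracinostat and 0.0012% to 0.00408% with DMSO. Pracinostat replicate 3 had the highest share of microglia markers of the 7 libraries (0.705% of counts, where its group otherwise had 0.401% to 0.458% and DMSO libraries 0.368% to 0.46%) and the lowest share of monocyte-derived macrophage markers (0.106%, where its group otherwise had 0.161% to 0.28% and DMSO libraries 0.234% to 0.313%), though neither gap passed Dixon's 95% limit. In sorted bulk RNA, fewer cells of a type and less RNA per cell cannot be told apart.

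Gpr84 had 51.5, 84.4, 65.1 and 55.4 CPM in Pracinostat replicates 1 to 4, against 31.8, 20.9 and 28.9 CPM in DMSO replicates 1 to 3. The lowest Pracinostat library was thus above the highest DMSO library. These levels rest on 573 to 1387 counts per library with Pracinostat and 261 to 449 counts with DMSO. The mean was 64.1 ± 14.7 CPM (SD, n = 4) with Pracinostat and 27.2 ± 5.64 CPM (SD, n = 3) with DMSO, a log2 fold change of 1.24 ± 0.24 (SE). Over the whole table of tested genes, the groups stood apart without overlap for 965 (6.1%), and 555 (3.51%) were higher in every Pracinostat library than in any DMSO library. Of the 7 receptors this held for Gpr84, and the other 6 had groups that overlapped. With edgeR's quasi-likelihood test, 0 of 15822 genes (0%) had an adjusted p under 0.05, 661 (4.18%) had an unadjusted p under 0.05, and limma-voom also called 0. DESeq2 called 27 of 15771 genes with an adjusted p (0.171%), of which 25 were higher with Pracinostat (0.159%), and Gpr84 was the only 1 of the 7 receptors among them. Since the receptor was chosen on this contrast, nothing is read from that share.

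With 1 library left out, the log2 fold change of Gpr84 ran from 1.07 (without Pracinostat replicate 2, which had the highest level) to 1.37 (without DMSO replicate 1), with edgeR adjusted p from 0.337 to 0.9999. These values describe libraries on which the gene was chosen. Without both libraries richest in the fibroblast transcript Col1a1 (Pracinostat replicate 1 and DMSO replicate 2) it was 1.18. Pracinostat replicate 3, highest in microglia markers, had a Gpr84 level inside the range of the other Pracinostat libraries, and without it the log2 fold change was 1.23. Gpr84 lies on chromosome 15, and an antisense gene model, Gm49482, covers 39.5% of its exon bases in GENCODE M21. The strand setting of the counting is not given in the sources used here. Gm49482 had 3.54, 0.183, 1.79 and 2.9 CPM with Pracinostat, and 2.67, 2.8 and 3.74 CPM with DMSO, so its own row was far below that of Gpr84 in each library.

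**Figure D1:**
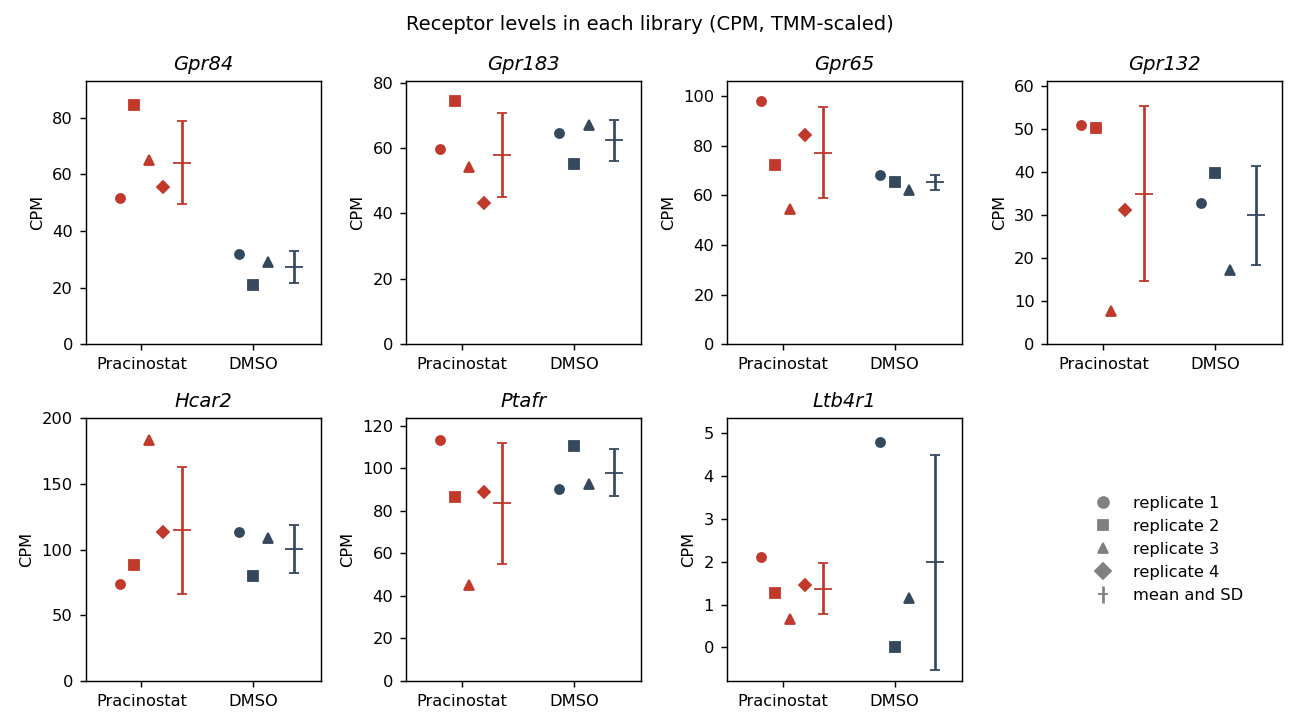
Level of each receptor (CPM on TMM-scaled library sizes, linear axis) in the 4 Pracinostat and 3 DMSO libraries. Each marker shape is a replicate number and the bars give mean and SD, which reaches below 0 for the low Ltb4r1. The groups separate for Gpr84 (51.5 to 84.4 with Pracinostat, 20.9 to 31.8 with DMSO) and overlap for the other 6.

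Gpr183, the oxysterol receptor that positions immune cells in tissue, had 59.6, 74.4, 54.4 and 43.3 CPM with Pracinostat, and 64.6, 55.2 and 67.2 CPM with DMSO. The Pracinostat libraries lay on both sides of the DMSO range. The means were 57.9 ± 12.9 CPM (SD, n = 4) and 62.3 ± 6.31 CPM (SD, n = 3), with a log2 fold change of -0.11 ± 0.21 (SE). Gpr183 sits on chromosome 14 within the span of Ubac2 on the opposite strand and shares 0 exon bases with it. Ubac2 had 19.5 to 25.6 CPM with Pracinostat and 18.04 to 30.7 CPM with DMSO. Ch25h, a cholesterol hydroxylase that makes the precursor of its main ligand and is named here after its values were seen, had 12.5, 19.2, 75.2 and 20.7 CPM with Pracinostat, and 18.6, 18.6 and 15.5 CPM with DMSO. The high value is that of Pracinostat replicate 3, whose Gpr183 level of 54.4 CPM was within the range of the other Pracinostat libraries. Hsd3b7, which degrades the oxysterol ligands, had 28.2, 24.0, 26.3 and 25.9 CPM with Pracinostat, and 37.0, 39.4 and 33.8 CPM with DMSO. All 4 Pracinostat libraries were below the DMSO libraries, as for 2.59% of all genes tested, with a log2 fold change of -0.49 ± 0.22 (SE, edgeR unadjusted p = 0.0441, adjusted p = 0.9998).

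The acid-sensing receptor gene Gpr65, which acts through Gs and cyclic AMP, had 97.8, 72.0, 54.6 and 84.2 CPM with Pracinostat, and 68.0, 65.4 and 62.0 CPM with DMSO. Pracinostat replicate 3 lay below the other 6 libraries, and the other 3 Pracinostat libraries lay above all DMSO libraries. The log2 fold change was 0.24 ± 0.21 (SE). An antisense gene model, Gm47566, covers 24.7% of the Gpr65 exon bases. It had no row under that symbol among the counts, so no level is given for it. Gpr132, a receptor linked to lysophospholipids, oxidised fatty acids and lactate, had 50.9, 50.2, 7.74 and 31.1 CPM with Pracinostat, and 32.8, 39.8 and 17.2 CPM with DMSO. It was the most variable of the 6 receptors above trace level, with a coefficient of variation of 58.2% with Pracinostat and 38.7% with DMSO. Its log2 fold change of 0.23 ± 0.59 (SE) changed sign in several of the settings tried, among them the fit without DMSO replicate 3 (-0.05).

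Hcar2, through which niacin and beta-hydroxybutyrate act on myeloid cells, had 74.0, 88.7, 183.4 and 113.6 CPM with Pracinostat, and 113.6, 79.9 and 108.5 CPM with DMSO. The highest and the lowest of the 7 values were both Pracinostat libraries. Its log2 fold change was 0.19 ± 0.28 (SE) over all libraries and -0.13 without Pracinostat replicate 3. Ptafr, the receptor for platelet-activating factor, had 113.4, 86.5, 45.2 and 89.0 CPM with Pracinostat, and 90.4, 110.7 and 92.8 CPM with DMSO. Pracinostat replicate 3 was the lowest library and replicate 1 the highest. The log2 fold change was -0.23 ± 0.25 (SE), and -0.03 without Pracinostat replicate 3.

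Ltb4r1, the high-affinity leukotriene B4 receptor, was near the limit of detection, with 31, 21, 10 and 15 counts in the Pracinostat libraries and 61, 0 and 18 counts in the DMSO libraries. In CPM this was 2.11, 1.28, 0.661 and 1.45 with Pracinostat, and 4.8, 0 and 1.16 with DMSO. The 0 in DMSO replicate 2 allows up to 0.24 CPM at 3 counts, a limit that covers counting error only. The log2 fold change of -0.53 ± 1.43 (SE) gives no usable direction, and it was 1.23 without DMSO replicate 1.

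Compared per length (CPM per kb of merged GENCODE M21 exons, an annotation of another build than the counts), the order of mean levels with Pracinostat was Hcar2 (59.5 ± 25.1), Gpr65 (37.3 ± 8.87), Gpr84 (37.2 ± 8.53), Ptafr (23.0 ± 7.77), Gpr183 (20.1 ± 4.47), Gpr132 (12.9 ± 7.5) and Ltb4r1 (0.987 ± 0.428), each with SD and n = 4. With Pracinostat the library ranges of neighbours overlapped at every step except between Gpr132 and Ltb4r1. With DMSO the order was Hcar2 (52.2 ± 9.41), Gpr65 (31.5 ± 1.45), Ptafr (26.9 ± 3.05), Gpr183 (21.6 ± 2.19), Gpr84 (15.8 ± 3.27), Gpr132 (11.03 ± 4.27) and Ltb4r1 (1.42 ± 1.79), with SD and n = 3. With DMSO the ranges overlapped between Gpr65 and Ptafr and between Gpr84 and Gpr132. Gpr84 was thus below Gpr183 and Ptafr in every DMSO library, and its Pracinostat range of 29.8 to 49.0 CPM per kb exceeded that of Gpr183, 15.005 to 25.8 CPM per kb.

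The 7 receptors did not all vary in the same direction across libraries. In Pracinostat replicate 3, Gpr132 (0.175), Ptafr (0.47) and Gpr65 (0.645) were below the mean of the other Pracinostat libraries as ratios, while Hcar2 was at 1.99 times that mean and Gpr84 at 1.02. Over the 7 libraries, log2 CPM of Hcar2 and Ptafr had a Pearson r of -0.93 (exact permutation p = 0.00734, adjusted p = 0.0854 over 21 pairs) and a Spearman rho of -0.79 (exact permutation p = 0.048, adjusted p = 0.348). Without the libraries farthest from the median of Hcar2 (Pracinostat replicates 1 and 3) r was -0.63, and without Pracinostat replicate 3 alone it was -0.79. Hcar2 and Gpr132 had an r of -0.91 (exact permutation p = 0.00813, adjusted p = 0.0854) and a rho of -0.86 (exact permutation p = 0.0238, adjusted p = 0.348). Without Pracinostat replicate 3 and DMSO replicate 3, the libraries farthest from the median of Gpr132, r was -0.85, and without Pracinostat replicate 3 alone it was -0.71. Gpr132 and Ptafr had an r of 0.85 (exact permutation p = 0.0385, adjusted p = 0.269) and a rho of 0.54 (exact permutation p = 0.236, adjusted p = 0.778), but 0.34 without Pracinostat replicate 3, on which that relation rests. None of the 21 pairs passed after adjustment. For Gpr84 over all libraries, r with the other receptors ran from -0.47 (Ptafr) to 0.26 (Hcar2), and rho from -0.75 (Ptafr) to 0.36 (Hcar2). These values include the group difference on which Gpr84 was chosen. With group means removed, its r ran from -0.41 (Gpr65) to 0.71 (Gpr183). On that scale Gpr65 and Ptafr had 0.93, Gpr132 and Ptafr 0.91, and Hcar2 and Ptafr -0.95, Pracinostat replicate 3 included. With group means kept, Gpr65 and Ptafr had an r of 0.64 (exact permutation p = 0.132, adjusted p = 0.462) and a rho of 0.36. Their r was 0.32 without Pracinostat replicate 3, and -0.46 without Pracinostat replicates 1 and 3.

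The same libraries differed in markers of the cell mixture. Against the share of counts in 8 microglia markers, Ptafr had an r of -0.98 (exact permutation p = 0.00813, adjusted p = 0.0722 over 35 relations) and a rho of -0.68 (exact permutation p = 0.11, adjusted p = 0.458). Without the libraries farthest from the median of that share (Pracinostat replicate 3 and DMSO replicate 2), r was -0.86. Hcar2 had an r of 0.92 (exact permutation p = 0.00992, adjusted p = 0.0722) and a rho of 0.75 (exact permutation p = 0.0663, adjusted p = 0.458), with an r of 0.68 without the same libraries. Gpr84 had an r of 0.48 with that share (exact permutation p = 0.284) and a rho of 0.36 (exact permutation p = 0.444), and its r turned to -0.24 without the same libraries. None of the 35 relations passed after adjustment, the smallest adjusted p being 0.0625, for Hcar2 with 10 macrophage markers (r 0.97, or 0.95 without the same libraries) and for Gpr132 with 8 dendritic cell markers (r 0.94, or 0.6 without Pracinostat replicate 3 and DMSO replicate 3). The part of the cell mixture in these receptor levels was not tested.

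**Figure D2:**
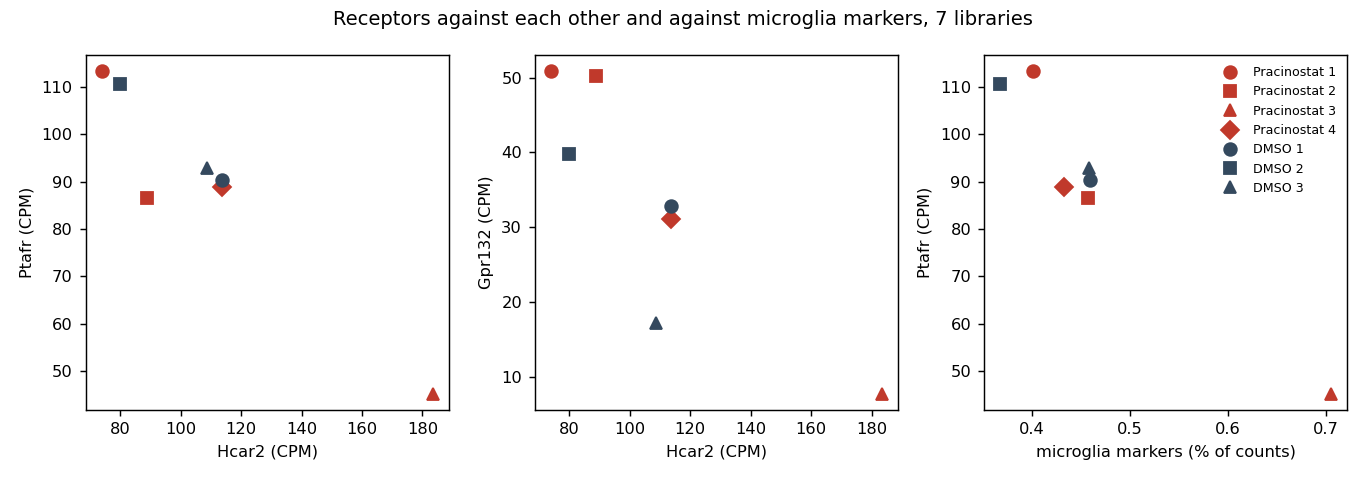
Hcar2 against Ptafr, Hcar2 against Gpr132 (both in CPM), and the share of counts in 8 microglia markers (percent) against Ptafr, with 1 point per library. Pracinostat replicate 3, at 183.4 CPM of Hcar2 and 45.2 CPM of Ptafr, lies far from the other 6 libraries in each panel.

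Outside these 7, other receptors for lipid mediators gave no call in edgeR, which called 0 of all 15822 genes tested. Of 44 listed, 28 were tested, 10 with positive and 18 with negative log2 fold changes and a median of -0.21, beside 52.3% positive and a median of 0.02 over all genes tested. Called by edgeR were 0 of 28, the same share as over all genes, so nothing is read from this count. Groups did not overlap for 0 of the 28, beside 6.1% of all genes tested. Ptger4, a prostaglandin E receptor, averaged 109.1 ± 24.5 CPM (SD, n = 4) with Pracinostat and 86.2 ± 8.52 CPM (SD, n = 3) with DMSO (log2 fold change 0.34 ± 0.20, SE). S1pr2, a sphingosine 1-phosphate receptor, averaged 15.6 ± 3.07 CPM with Pracinostat (SD, n = 4) and 25.5 ± 15.1 CPM with DMSO (SD, n = 3), a log2 fold change of -0.71 ± 0.40 (SE). Gpr35 and P2ry10, named after their values were seen, were also lowest or nearly lowest in Pracinostat replicate 3. Gpr35 had 226.4, 202.4, 64.9 and 133.0 CPM with Pracinostat, and 206.1, 166.6 and 130.2 CPM with DMSO. P2ry10, a lysophosphatidylserine receptor, had 39.6, 39.0, 8.07 and 24.4 CPM with Pracinostat, and 21.1, 28.3 and 3.41 CPM with DMSO.

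Enzymes that make or remove the ligands were called in 0 of 23 tested, beside 0 of all 15822 genes. Their log2 fold changes were positive for 12 and negative for 11, with a median of 0.09. Beside Hsd3b7, the smallest p values belonged to Acadvl, a fatty acid oxidation enzyme (-0.44 ± 0.25), and Cyp27a1, a sterol hydroxylase (0.76 ± 0.45). Pla2g7, which inactivates platelet-activating factor, named after its values were seen, had 431.7, 310.6, 94.6 and 317.1 CPM with Pracinostat, and 506.6, 438.6 and 299.8 CPM with DMSO. Like Ptafr, it was lowest in Pracinostat replicate 3.

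Downstream signalling genes (G protein subunits, receptor kinases, arrestins, regulators of G protein signalling and effectors) were called in 0 of 55, beside 0 of all 15822 genes. Their log2 fold changes were positive for 21 and negative for 34, with a median of -0.08. Plcb1, a phospholipase C activated by Gq, had 12.1, 7.98, 5.62 and 11.4 CPM with Pracinostat, and 24.1, 18.6 and 17.4 CPM with DMSO. Its groups did not overlap and the log2 fold change was -1.11 ± 0.36 (SE, edgeR unadjusted p = 0.00751, adjusted p = 0.9998). Grk2, a kinase that desensitises activated receptors, averaged 223.5 ± 14.4 CPM with Pracinostat (SD, n = 4) and 265.4 ± 23.6 CPM with DMSO (SD, n = 3), a log2 fold change of -0.25 ± 0.14 (SE). Plcb3, another phospholipase C, averaged 109.3 ± 21.8 CPM with Pracinostat and 86.2 ± 10.1 CPM with DMSO (0.34 ± 0.19). Groups did not overlap for 1 higher and 3 lower genes of the 55, beside 3.51% and 2.59% of all genes.

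Other receptors of the superfamily found on myeloid cells were called in 0 of 36, beside 0 of all 15822 genes. Their log2 fold changes were positive for 18 and negative for 18, with a median of 0.01. Ccrl2, an atypical receptor that binds chemerin, had 602.4, 513.1, 360.2 and 376.9 CPM with Pracinostat, and 354.3, 351.1 and 333.1 CPM with DMSO (log2 fold change 0.42 ± 0.18, SE). C5ar1, the receptor for complement C5a, had 281.9, 268.5, 274.2 and 272.8 CPM with Pracinostat, and 226.7, 223.8 and 216.8 CPM with DMSO (0.30 ± 0.14). Both genes had every Pracinostat library above the DMSO libraries, with an edgeR adjusted p of 0.9998 for each. Groups did not overlap for 2 higher and 0 lower genes of the 36, beside 3.51% and 2.59% of all genes tested. The chemokine receptor gene Ccr1 averaged 68.6 ± 35.3 CPM with Pracinostat (SD, n = 4) and 127.7 ± 35.5 CPM with DMSO (SD, n = 3), with overlapping groups (-0.90 ± 0.43).

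**Figure D3:**
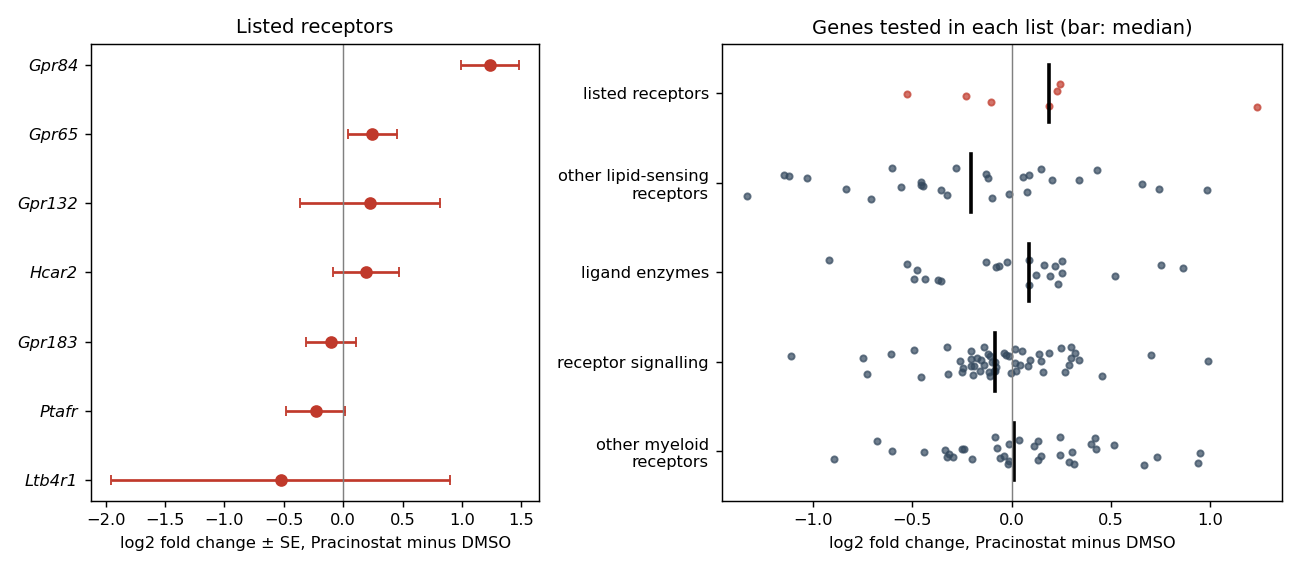
Left, log2 fold change (Pracinostat minus DMSO) of the 7 receptors with its SE. Right, log2 fold changes of every tested gene in each list, with a bar at the median. Gpr84 is at 1.24, and the 28 other lipid-sensing receptors tested run from -1.33 to 0.99 with a median of -0.21.

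The genes whose pattern was most like that of Gpr84 were found by Pearson r of log2 CPM over the 7 libraries among the 10034 symbols whose mean log2 CPM was 2 or more. An r above 0.9 was reached by 42 of them (0.419%). The highest were Rbm7, an RNA-binding subunit of the nuclear exosome targeting complex (0.98), the orphan receptor gene Mrgpre (0.98) and the deubiquitinase gene Usp11 (0.97). Pdzd11 (0.97) and Procr, the endothelial protein C receptor (0.97), came next. Spearman rho was 0.93, 0.93, 0.93, 0.96 and 1 in that order. Rbm7 had 40.0, 48.2, 45.0 and 38.6 CPM with Pracinostat, and 27.2, 24.4 and 28.7 CPM with DMSO. Its peak fell in Pracinostat replicate 2, as for Gpr84. The lowest r belonged to Hsd3b7 (-0.97), Golga1 (-0.97), Arrdc1 (-0.96), Zfp358 (-0.96) and Cog7 (-0.96), with rho of -0.93, -0.96, -0.86, -1 and -1. These values include the group difference on which Gpr84 was chosen, and each of these genes had groups that did not overlap. With group means removed, r ran from 0.80 (Procr) to 0.90 (Pdzd11) for the genes most like Gpr84. For those most unlike it, r then ran from -0.89 (Cog7) to -0.79 (Hsd3b7). All are the extremes of many comparisons over few libraries and carry no test.

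**Figure D4:**
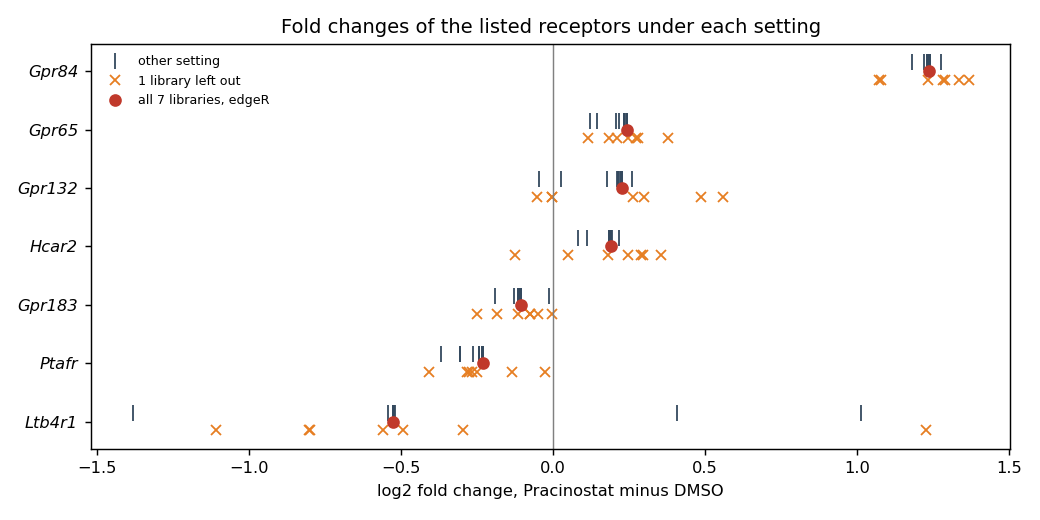
Log2 fold change of each receptor (Pracinostat minus DMSO) with all 7 libraries, with 1 library left out, and under the other settings. Gpr84 stays between 1.07 and 1.37, while Gpr132, Hcar2 and Ltb4r1 have values on both sides of 0.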

How the data were processed

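Total RNA (1 ng per library) was sequenced from both ends at 150 bases on 2 lanes, per the labels' protocols. The authors deposited expected counts for each gene, stored as whole numbers. Tools named in the submitters' processing notes include STAR and RSEM, with the build GRCm39. Annotation and strand setting of the counting: not given in the sources used here.

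Groups came from the labels. The expected counts were tested as whole numbers in edgeR 4.0.16 (R 4.3.3) with TMM factors, filterByExpr at a minimum count of 10 and a robust quasi-likelihood fit, two-sided, with Benjamini-Hochberg adjustment over 15822 genes and a threshold of 0.05. SE is the absolute log2 fold change divided by the square root of F. Alternatives were DESeq2 1.42.0, limma 3.58.1 (voom), other scalings and filters, a replicate block, and left-out libraries; those without Pracinostat replicate 3 in the correlations were added after seeing the data. The script was tested on simulated counts. Likeness to Gpr84 used log2 CPM with a prior count of 2, and other correlations a pseudocount of 0.5, with exact p over 5040 pairings. The smallest chi-square per degree of freedom between replicates was 32.3, so none were duplicates. Rows without a symbol (3205) held 1.21% of counts.

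Members and lists were chosen with earlier results of these data known. Named were all members, the 3 genes of each list with the smallest p, the 5 genes most like and most unlike Gpr84, genes overlapping a member and defining markers; others are marked where they appear, and 1 gene that the rule names is not reported here. Gene coordinates are left out because the counts and the annotation are of different builds.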

Additional observations from a re-analysis of the deposited data

Results flagged for a closer look

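Dixon's test at the 95% level was applied to 53 quantities over the Pracinostat group. It singled out 1 library in 5 of them. Chance gives about 1 in 20 for quantities not chosen by their values, but some here were (Ch25h after its values were seen, Procr for its likeness to Gpr84), so the count is not compared with that rate. In Pracinostat replicate 3, Ptger4 was at 72.5 CPM, while the rest of its group had 118.7 to 123.1 CPM and DMSO libraries 80.4 to 96.0 CPM. Cyp27a1 there was at 6.02 CPM, with 17.05 to 17.2 CPM in the rest of the group and 5.02 to 12.3 CPM with DMSO. Ch25h there was at 75.2 CPM, with 12.5 to 20.7 CPM in the rest of the group and 15.5 to 18.6 CPM with DMSO. In Pracinostat replicate 2, Procr reached 17.6 CPM, above 13.3 to 14.02 CPM in the rest of the group and 9.44 to 9.75 CPM with DMSO. Fibroblast markers held 0.0669% of counts in Pracinostat replicate 1, above 0.002% to 0.00412% in the rest of the group, while DMSO libraries had 0.00192% to 0.11%.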

How the results depend on the processing

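edgeR called 0 genes. This became 63 with no low-count filter, 27 in DESeq2, and 4 in a fit blocked on replicate number, which drops Pracinostat replicate 4. Single left-out libraries gave 0 to 3 calls, with 3 when DMSO replicate 3 was dropped. In the lists around the receptors the count stayed at 0 in all 18 alternatives. The most calls in any alternative were 63 of 25571 genes. Few or none were therefore due in lists this short, and nothing is read from that 0. Gpr84 kept its direction in all 18, from 1.07 to 1.37. It was chosen on these libraries and its groups did not overlap, so this constancy is a description and no test. The adjusted p of Gpr84 was 0.506 in the main edgeR fit. It was under 0.05 in edgeR with no low-count filter (0.000962) and in DESeq2 (0.00976), and ran up to 0.9999 in the others. These p-values are also those of a gene chosen on this contrast, so they carry no test of it. In the block its log2 fold change was 1.28. Gpr132 reversed in the block (-0.048), and leaving out 1 library gave -0.05 to 0.56 for it, with values under 0 when DMSO replicate 3 (-0.053) or Pracinostat replicate 1 (-0.0031) or 2 (-0.0024) was dropped. Hcar2 reversed without Pracinostat replicate 3 (-0.13), in a range of -0.13 to 0.36. Ltb4r1 reversed with limma-voom (1.01), in the block (0.41) and without DMSO replicate 1 (1.23), in a range of -1.38 to 1.23 over all 18. With 1 library left out its range was -1.11 to 1.23. The causes were not tested. Gpr183, Gpr65 and Ptafr kept their direction in all 18. The labels do not say that equal numbers pair samples. Deviations of same-numbered libraries correlated at 0.045, -0.035 and 0.073, against -0.074 to 0.051 for unlike numbers. The value of 0.073 lies above that range, and so few values could not settle whether equal numbers pair samples. Another scaling moved the median of all genes by at most 0.02. For Ltb4r1, the depth of 0 to 61 counts limits any statement.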
